A study of Homo sapiens with 3 samples.

Results

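The cytosolic ribosomal proteins are the protein components of the ribosome that translates nuclear messages in the cytoplasm. Their genes were taken by symbol from the array's platform annotation, which gave 75 genes with 124 probes, of 20046 named genes and 47323 probes in all. The small subunit was covered by 26 genes with 45 probes and the large subunit by 49 genes with 79 probes. RPSA, RPLP0 and RPS27A have no probe under those symbols in the annotation used and were not analysed here. Expression was measured in A375, an established human melanoma cell line, with 1 Illumina array of total RNA for each of 3 states. The states were cells kept in suspension on sterile plastic dishes, suspended cells placed back on a culture dish in fresh medium for 1 day, and cells that had stayed adherent. All were grown in DMEM with 10% serum and antibiotics, and neither the time in suspension nor the number of cultures behind each RNA was given in the sources used here. With 1 array per state there is no replicate, no test and no p-value for any difference below, and in bulk RNA fewer cells of a kind and less RNA per cell cannot be told apart.

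A ribosome joins a small subunit, which reads the message, to a large subunit, which forms the peptide bond, and each subunit carries its own set of proteins on ribosomal RNA. Cells make these proteins in balanced amounts, and much of that balance is set on translation, because their messages begin with a run of pyrimidines, the 5′ TOP element, through which mTOR signalling and the binding protein LARP1 govern their use. A few of the proteins have paralogs, gene copies with restricted expression such as RPL3L in striated muscle and RPL10L in testis. The arrays measure message abundance and not its translation.

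The windows below show the 5′ TOP element, the feature that the symbol rule did not use and that separates most of these genes from their paralogs. Each window runs 15 bases before and 15 bases from the transcription start in the RefSeq promoter table (GRCh38.p14), 5′ to 3′ on the gene's strand. Capitals mark an unbroken run of at least 5 C or T bases that begins with a C at the start itself, and a window without capitals has no such run there. Shown are some of the genes with wide differences between arrays, RPS19, the stalk gene RPLP2, and paralogs, most of them beside a parent gene. No window is shown for RPL5, RPL37 and RPL39L.
RPS6, chr9:19380222-19380251, minus strand: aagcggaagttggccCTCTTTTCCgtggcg
RPS7, chr2:3575245-3575274, plus strand: gtttccgccctcctcctcgcgctgtttccg
RPS19, chr19:41860240-41860269, plus strand: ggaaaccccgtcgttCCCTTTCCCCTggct
RPL13, chr16:89560667-89560696, plus strand: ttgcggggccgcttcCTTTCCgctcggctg
RPL24, chr3:101686704-101686733, minus strand: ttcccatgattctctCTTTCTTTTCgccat
RPLP2, chr11:809952-809981, plus strand: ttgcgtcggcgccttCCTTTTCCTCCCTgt
RPL22, chr1:6199581-6199610, minus strand: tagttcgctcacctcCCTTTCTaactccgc
RPL22L1, chr3:170870181-170870210, minus strand: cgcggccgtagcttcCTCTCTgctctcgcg
RPL26, chr17:8383179-8383208, minus strand: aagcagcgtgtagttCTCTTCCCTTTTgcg
RPL26L1, chr5:172958714-172958743, plus strand: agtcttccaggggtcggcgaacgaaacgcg
RPS27, chr1:153990747-153990776, plus strand: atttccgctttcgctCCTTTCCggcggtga
RPS27L, chr15:63157463-63157492, minus strand: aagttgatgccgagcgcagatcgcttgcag
RPL7L1, chr6:42879601-42879630, plus strand: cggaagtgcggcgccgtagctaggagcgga
RPL10, chrX:154398362-154398391, plus strand: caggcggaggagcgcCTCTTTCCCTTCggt
RPL10L, chr14:46651767-46651796, minus strand: caggcgtagttaagagagcgcattttgact
RPS19, RPL10, RPL13 and RPL26L1 have more than 1 start in the table, and the start with the longest run was used, or the first by position where none had a run.

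Of the 63 genes found in the promoter table, 44 (69.8%) had such a run at an annotated start. The run was as frequent in the small subunit (16 of 23 genes) as in the large subunit (28 of 40). Without the paralogs the count was 43 of 58 genes, 74.1%, against 5.98% of 15780 other protein-coding genes. Among 5 paralogs in the table, RPL22L1 alone had the run, while RPL7L1, RPL10L, RPL26L1 and RPS27L had none. Mitochondrial ribosomal proteins, which build the separate ribosome of that organelle, had it in 6 of 69 genes. RPS7 begins with C and T bases that are broken after 3 letters, so it falls just outside this definition, and a missing run says only that the letters are not at the annotated start.

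**Figure D1:**
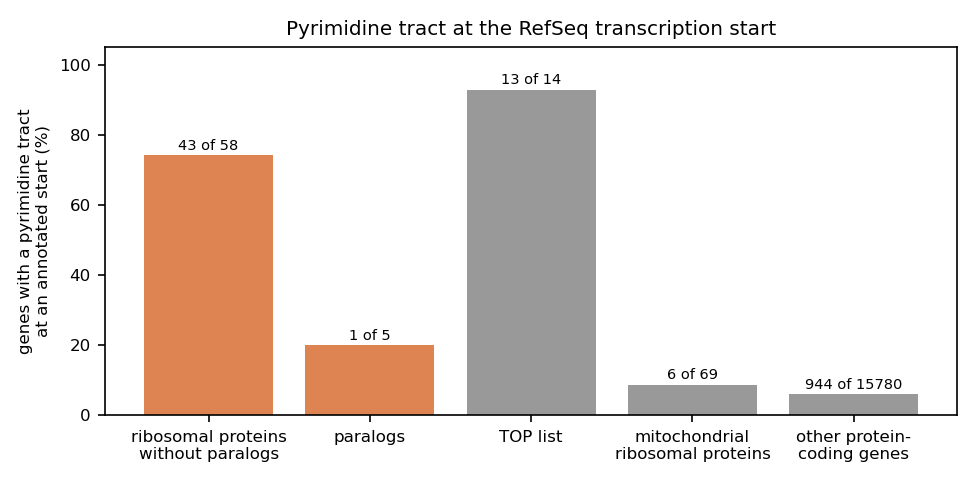
Share of genes (vertical axis, %) whose RefSeq start begins with a run of at least 5 C or T bases that opens with C, by gene set, with the counts above the bars. The run was found in 43 of 58 ribosomal protein genes without paralogs, in 1 of 5 paralogs and in 944 of 15780 other protein-coding genes. The TOP list was chosen for known TOP genes, so its 13 of 14 is no independent count.

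In the whole 300-base window of the table, 250 bases before and 50 after the start, the ETS core CCGGAA on either strand was present in 58.7% of the ribosomal protein genes, against 26.5% of other protein-coding genes. Mitochondrial ribosomal protein genes held it in 62.3%. The YY1 site AAGATGGC, also on either strand, was present in 11.1% of the ribosomal protein genes, 30.4% of the mitochondrial ones and 4.64% of other protein-coding genes. The reverse of the ETS core can overlap the pyrimidine run, and the ETS and YY1 letters can overlap each other. These are counts of letters in a window and not of bound sites.

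Most of the genes were bright on all arrays. A probe was called detected at a detection p-value under 0.01, and 118 of the 124 probes passed on the suspended, 116 on the reattached and 117 on the adherent array, against 36.9%, 35.6% and 37.5% of all probes. Their median signal was 5567, 5321 and 5474 on those arrays, where the median of all probes was 60.1, 57.0 and 57.8. The 124 probes gave 5.00%, 5.00% and 5.10% of the summed signal of all probes, background included. Among the 200 brightest probes of each array, 30, 31 and 33 belonged to them. The brightest, a probe for RPL41, which encodes a very short peptide of the large subunit, reached 27986, 24310 and 25635, near the highest signals of 28252, 26657 and 27004 on the arrays. The table flags no saturated probes, and how far such bright probes can still show a difference was not tested.

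Detection was reached by 73 of the 75 genes on 1 array or more and by 72 on every array. RPL3L was detected on none, with signals of 49.8 in suspended, 52.1 in reattached and 43.2 in adherent cells. RPL10, a late addition to the large subunit, had 2 probes that were both at background on every array; the signals of the first were 55.4 in suspended, 46.8 in reattached and 53.0 in adherent cells, so these probes give no value for that gene. RPL10L, the retrocopy of RPL10, passed on the suspended array only, with signals of 80.6 in suspended, 70.3 in reattached and 57.3 in adherent cells. Of 7 melanocyte lineage markers with a probe, SOX10, MITF and MIA were detected on all arrays, while PMEL, MLANA, TYR and S100B were detected on none. The leukocyte gene PTPRC, the epithelial genes EPCAM and CDH1 and the endothelial gene CDH5 were also detected on none, and of 2 fibroblast markers COL1A1 was detected on none and LUM on all 3.

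Signals were background-corrected and quantile-normalized with neqc, which adds 16 before log2 and therefore narrows the differences of dim genes. Differences are given on that log2 scale, as suspended minus adherent and so on, with each gene represented by its brightest detected probe. Because all arrays are forced to the same distribution, a difference is relative to the other transcripts, and a change in the amount of all messages per cell would not appear.

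Suspended cells, which lack anchorage, were first set against adherent cells. The ribosomal protein genes differed little. Their median difference was -0.02 over 73 genes, with the middle 50% between -0.12 and 0.04, beside a median of 0.00 and a middle 50% of -0.15 to 0.16 over 10991 named genes, and under median scaling the members' median changed sign to 0.06 while that of all genes moved to 0.10. Relative to the median of all genes the members lay at -0.02, and under the other scalings between -0.04 and -0.02. The SD over genes was 0.140 for the ribosomal proteins and 0.303 for all genes. It was 0.156 for 76 mitochondrial ribosomal protein genes, 0.141 for 36 ribosome biogenesis genes and 0.129 for 19 genes of the TOP list. The narrow spread was thus not particular to the cytosolic ribosomal proteins. A difference of 0.322 or more on the log2 scale in either direction was taken as the limit for a count. In suspension 0 of 73 were higher by that measure, against 10.8% of all genes, and 2 were lower, against 9.23% of all genes. No member reached 2-fold in either direction, which 0.5% of all genes did upward and 0.655% downward. Within 1.1-fold of the adherent level lay 50 of the 73, against 46.2% of all genes.

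The bright genes were also counted alone. Of the ribosomal protein genes with a mean log2 level of 12 or more, 0 of 50 were past the limit in this comparison, against 5.42% higher and 2.59% lower among 424 other genes at that level. The SD was 0.117 for these 50 genes and 0.222 for the 424 others. Within 1.1-fold lay 37 of the 50, 74%, against 56.4% of the 424 others. The 2 genes past the limit were both among the 23 under level 12. Neither stayed past it with median scaling, which put RPS7 at -0.29 and RPL39L at -0.22, or with the mean over their probes, at -0.27 and -0.31.

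The subunits had similar values. The small subunit had a median of -0.03 (26 genes, 14 below 0) and the large subunit of -0.02 (47 genes, 29 below 0), and with median scaling both turned positive, 0.03 and 0.07. Below 0 lay 43 of all 73 genes, 58.9%, where 49.9% of all named genes did.

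In the small subunit the lowest difference was that of RPS7, a protein needed for processing of the precursor of the small subunit's RNA. Its log2 level was 8.02 in suspended, 8.40 in reattached and 8.42 in adherent cells. The suspended array alone was low, by 1.32-fold against adherent cells, and the gene's second probe gave -0.15 in that comparison. RPS19, the protein most often mutated in Diamond-Blackfan anaemia, stood at 14.16 in suspended, 14.37 in reattached and 14.39 in adherent cells, and the suspended array was again the low one, by -0.23 against adherent cells. RPS25 (-0.20) and RPS12 (-0.19) were next. The highest value of the small subunit was that of RPS6, the substrate of S6 kinase, at 14.44 in suspended, 14.37 in reattached and 14.17 in adherent cells. It was 1.21-fold higher in suspended than in adherent cells, with a second probe at 0.08. The difference was past the limit with median scaling, at 0.34, and in the authors' deposited table, at 0.37. RPS10 and RPS18, proteins of the small subunit's head, each differed by 0.15. RPS18 is also a common reference gene in quantitative PCR.

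In the large subunit the 4 lowest genes held 3 paralogs. RPL39L, a copy of RPL39 known from testis and tumour cells, had a level of 9.44 in suspended, 9.69 in reattached and 9.78 in adherent cells. It was 1.27-fold lower in suspended than in adherent cells, and its second probe gave -0.28. Its parent RPL39 differed by -0.06. RPL22L1 had levels of 7.29 in suspended, 7.35 in reattached and 7.61 in adherent cells, so the adherent array was the high one. Its suspended minus adherent difference was -0.32, and its parent RPL22, an RNA-binding protein of the large subunit, differed by -0.19. RPL26L1 had levels of 10.69 in suspended, 10.90 in reattached and 10.99 in adherent cells. It differed by -0.30 between suspended and adherent cells, and its parent RPL26 differed by -0.08. The second RPL26L1 probe, however, read 0.20, the opposite sign. RPL24, which helps to bridge the subunits, is no paralog. Its levels were 11.24 in suspended, 11.36 in reattached and 11.55 in adherent cells, a suspended minus adherent difference of -0.31. RPL22L1, RPL24 and RPL26L1 lay just inside the limit.

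RPL7L1, a paralog tied to ribosome assembly, was the highest large-subunit gene detected on both arrays, with levels of 12.66 in suspended, 12.59 in reattached and 12.42 in adherent cells and a suspended minus adherent difference of 0.24. Its other probe gave -0.20. RPL10L was at least 1.21-fold higher in suspension, its adherent value being set at the adherent array's lowest detected level. This gene entered through the suspended array alone, where its signal was highest, so the filter largely fixed that direction. RPS27L, a p53-induced copy of RPS27, differed by -0.09, and RPS27 by 0.02 with another probe at -0.25. RPL35, which lies near the exit of the peptide tunnel, had 0.16, and the stalk proteins RPLP2 and RPLP1, which recruit elongation factors, had 0.15 and 0.05. RPL5 and RPL11, which bind 5S RNA and can hold the p53 ligase MDM2, had -0.02 and -0.11. The second RPL11 probe gave 0.08, and the mean over both was -0.02. RPL13A, another reference gene, had -0.02.

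**Figure D2:**
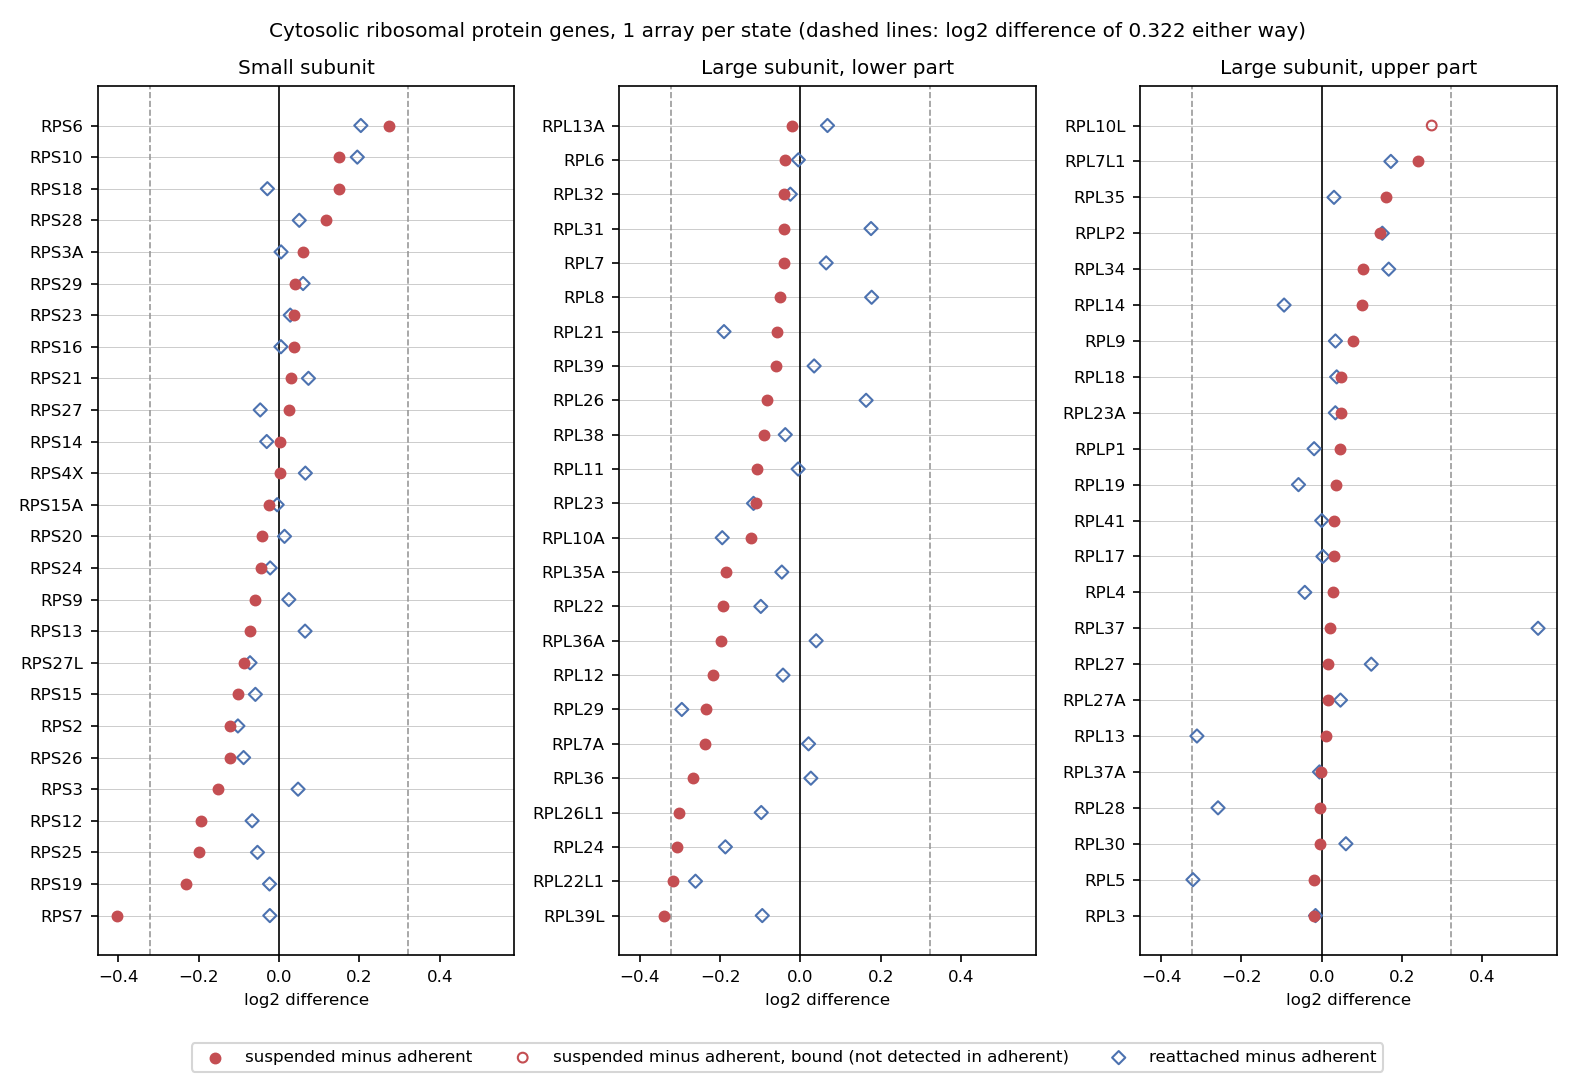
Each of the 73 detected genes (rows) with its log2 difference (horizontal axis) for suspended minus adherent (filled circles) and reattached minus adherent (open diamonds), 1 array per state. The open circle is a bound for RPL10L, and dashed lines mark the limit of 0.322. RPS7 at -0.40 and RPL39L at -0.34 lie left of the limit, RPL37 at 0.54 right of it, and most genes lie near 0.

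Reattached cells were next set against suspended cells, and this comparison shares the suspended array with the first. The median over 73 genes was 0.03, beside 0.01 over 10715 named genes, and with median scaling it changed sign to -0.10 while that of all genes moved to -0.13. Relative to all genes the members lay at 0.03 in each of the 5 scalings. Past the limit, 2 genes were higher in reattached cells, against 5.89% of all genes, and 1 was lower, against 6.36% of all genes. Of the 50 genes at level 12 or more 0 were past it, against 1.19% higher and 2.63% lower among 419 other genes of that level. No gene reached 2-fold, which 0.205% of all genes did upward and 0.112% downward. Below 0 lay 28 of the 73, where 47.8% of all genes did. The SD over genes was 0.144, against 0.226 for all genes, 0.140 for mitochondrial ribosomal proteins and 0.121 for the TOP list. At level 12 or more the SD was 0.111 for the 50 members and 0.151 for the 419 other genes. The small subunit had a median of 0.03 with 18 of 26 genes above 0 and the large subunit of 0.03 with 27 of 47, and both medians turned negative with median scaling, -0.10 and -0.11.

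The 2 higher genes were RPL37 and RPS7. RPL37, a zinc-binding protein of the large subunit, was measured by a dim probe with signals of 119 in reattached, 103 in suspended and 94.4 in adherent cells. The reattached array was the high one after normalization, with a log2 difference of 0.52 to suspension, and the gene's other probe was not detected on any array. With background left in, or in the authors' deposited table, that difference was 0.35. RPS7 was 1.30-fold higher in reattached cells, with its second probe at 0.27. RPL36 (0.29), RPL7A (0.26) and RPL26 (0.25) followed, and the second RPL36 probe gave 0.13. RPL39L had a difference of 0.25 with 0.15 for its second probe, RPL22L1 0.06 and RPS19 0.21. RPL26L1 had 0.21, but its second probe gave -0.24 and the mean over both -0.02.

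The lower gene was RPL13, at 10.43 in reattached, 10.76 in suspended and 10.74 in adherent cells. The reattached array alone was low, by -0.32 against suspension, a value just past the limit that lay just inside it in the authors' deposited table and with background left in. Its second, dimmer probe gave -0.33, so the probes were alike here. RPL5, measured by 1 probe, had levels of 12.61 in reattached, 12.91 in suspended and 12.93 in adherent cells. It was 1.23-fold lower in reattached than in suspended cells, just inside the limit. RPL11, its partner in the 5S particle, had 0.10 with a second probe at -0.15. RPL28 (-0.25), RPL14 (-0.19) and RPS18 (-0.18) were also among the 5 lowest. RPS6 stood at -0.07, RPLP1 at -0.07, RPLP2 at 0.01, RPL13A at 0.09 and RPS27L at 0.01. RPL10L, not detected after reattachment (detection p-value 0.0117, just over the cut-off), was at least 1.08-fold lower, a direction again largely fixed by the filter. RPL7L1 stood at -0.07.

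The third comparison set reattached cells against cells that had stayed adherent, and it shares an array with each of the others. The median over 72 genes was -0.01, beside 0.02 over 10821 named genes, and with median scaling it was -0.06. Past the limit, 1 gene was higher in reattached cells, against 6.54% of all genes, and 0 were lower, against 5.96% of all genes. At level 12 or more it was 0 of 50, against 2.15% higher and 1.43% lower among 419 other genes. Below 0 lay 37 of the 72, where 46.6% of all genes did. No gene reached 2-fold, which 0.037% of all genes did upward and 0.102% downward. Within 1.1-fold lay 55 of the 72 genes, 76.4%, against 53.6% of all genes. At level 12 or more, 43 of 50 members lay within 1.1-fold, 86%, against 71.8% of 419 other genes. For the small subunit as a whole it was 24 of 26, with an SD of 0.0752, and for the large subunit 31 of 46, with an SD of 0.155. The subunits were not matched for level, and the large one holds the dim RPL37 at 0.54. By level, the SD was 0.091 for the 50 members at 12 or more and 0.195 for the 22 under it.

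The higher gene was again RPL37, at 0.54, from the same dim probe. It stood at 0.37 with background left in and at 0.36 in the authors' deposited table. RPS6 (0.20), RPS10 (0.19), RPL8 (0.18) and RPL31 (0.18) came after it. The second RPS6 probe was at -0.09 and the second RPL8 probe at 0.09. The 5 lowest were RPL5 (-0.321, just inside the limit), RPL13 (-0.31), RPL29 (-0.30), RPL22L1 (-0.26) and RPL28 (-0.26). RPL5 signals were 5833 in reattached, 8317 in suspended and 7778 in adherent cells, so the reattached array alone was low. The second RPL13 probe gave -0.04, and the second RPL29 probe -0.11. RPL11 stood at -0.01, RPLP2 at 0.15, RPLP1 at -0.02, RPL13A at 0.07 and RPS18 at -0.03.

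**Figure D3:**
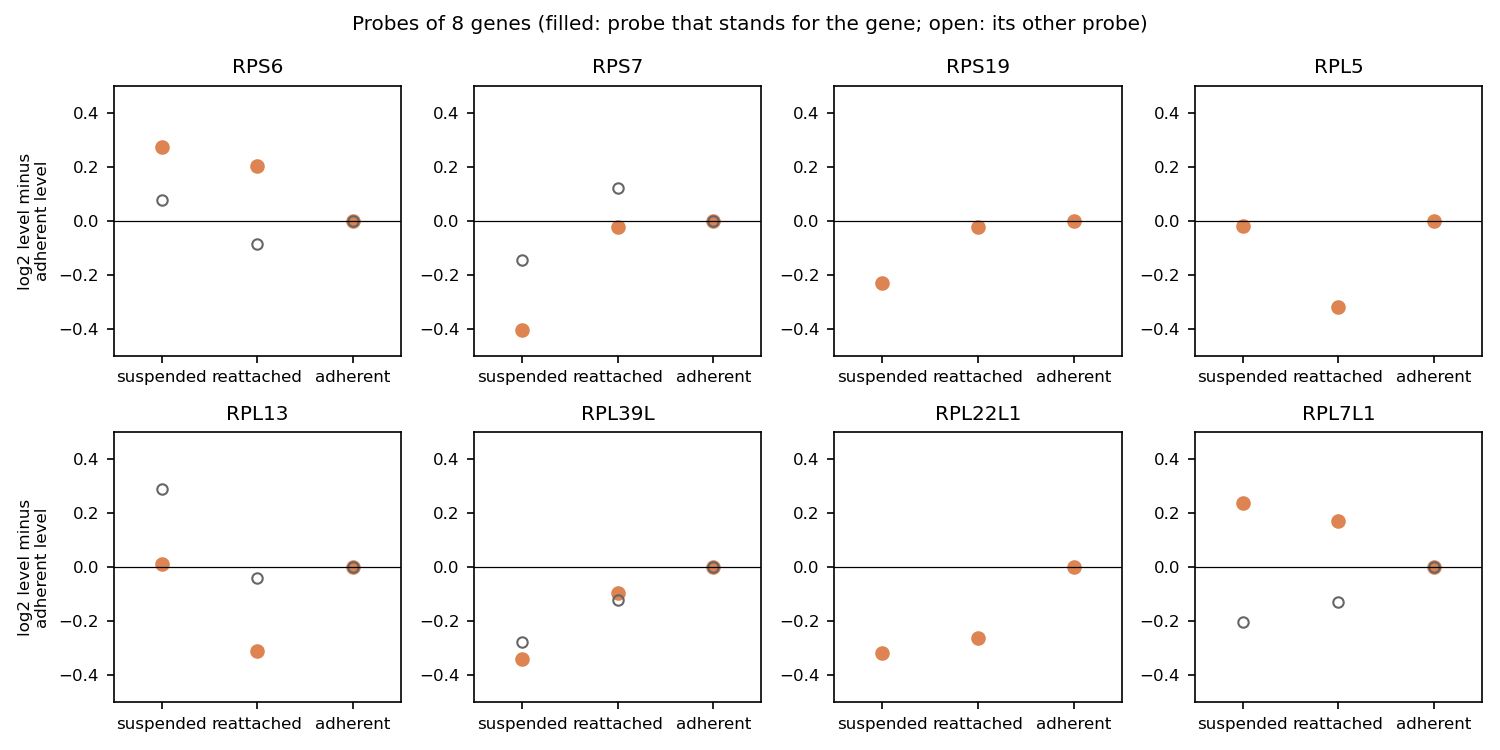
Log2 level minus the adherent level (vertical axis) on the suspended, reattached and adherent array for every probe of 8 genes, filled for the probe that represents the gene and open for its other probe. The RPL39L probes run together at -0.34 and -0.28 in suspension, whereas the RPL7L1 probes lie at 0.24 and -0.20.

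Probes of the same gene on the same arrays show how far readings of a gene disagree. They share the RNA and the array, so their gap holds no variation between cultures or arrays. It is therefore no measure of error for a difference between states. For suspended minus adherent, 33 of the genes had more than 1 probe detected on both arrays, and the gap between the highest and lowest of a gene's probes had a median of 0.185. That gap exceeded the members' own median absolute difference of 0.0729, and over all named genes the gap of 0.197 likewise exceeded 0.151. The 2 measures are unlike, since a range over several probes tends to exceed the size of 1 probe's difference. All probes had the same sign in 14 of the 33 genes, 42.4%, against 56.6% of 2679 named genes with several probes. In 0 of the 33 did all probes pass the limit in the same direction, which 172 of the 2679 genes did. For reattached minus suspended the median gap was 0.166, the sign was shared in 21 of 33 genes, 63.6%, against 55.2% of 2630 named genes. RPL13 was the 1 gene with all probes past the limit, as were 72 of the 2630. For reattached minus adherent the gap was 0.170 and the sign was shared in 14 of 33, against 52.0% of 2631 named genes.

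RPS15, a small-subunit protein next to the decoding site, had the widest gap for suspended minus adherent and for reattached minus suspended, the only one of 0.5 or more in each; for reattached minus adherent no gene reached 0.5. Its brightest probe gave -0.10 for suspended minus adherent, another 0.21 and a dim one -0.47, and for reattached minus suspended the range was -0.11 to 0.71. RPL39L, RPL29 and RPS7 had the lowest values for the higher of their probes, at -0.28, -0.23 and -0.15 for suspended minus adherent. Ribosomal protein genes have many processed pseudogenes and close copies in the genome, and whether a probe also reads these was not tested, since probe sequences were not used here.

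**Figure D4:**
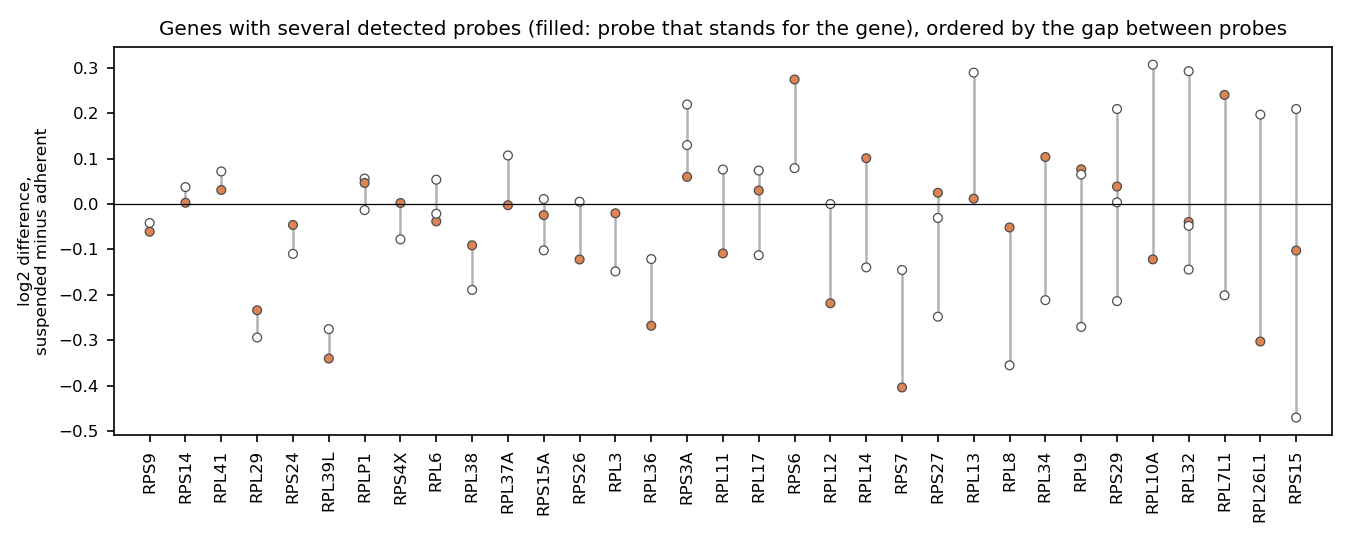
Log2 difference, suspended minus adherent (vertical axis), of each detected probe of the 33 genes with several probes (horizontal axis, ordered by gap). Filled points are the probes that represent the genes and lines join the probes of a gene. The median gap is 0.185, and the RPS15 probes span -0.47 to 0.21.

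Across the arrays, the suspended value was the lowest of the 3 in 36 of the 72 genes detected on all arrays (50%), against 36.6% of 9984 named genes, and the highest in 20 (27.8%), against 34.4%. The range over the arrays had a median of 0.122 for the ribosomal proteins and 0.219 for all genes, and it reached the limit in 4 of the 72, 5.56%, against 27.8% of all genes. The 4 genes were RPS7, RPL39L, RPL13 and RPL37. These counts use the quantile-normalized values and were not repeated with median scaling, which shifts the suspended array upward. They were also not matched for level.

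Genes with and without the pyrimidine run at the start lay close together. For suspended minus adherent the 43 detected genes with a run had a median of -0.04 and the 19 without one of 0.00. For reattached minus suspended the medians were 0.05 and 0.01, and for reattached minus adherent 0.00 and -0.02. The ranges overlapped in each comparison, in the first from -0.32 to 0.27 with a run and from -0.40 to 0.24 without. The second range leaves out RPL10L, whose bound of 0.27 had a direction that the filter largely fixed. That gene is still among the 19 without a run in the first 2 comparisons.

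Other genes of the translation machinery were followed through lists chosen with earlier results of these data known. Of 4 further cytosolic ribosomal protein genes outside the symbol patterns, 2 were measured. FAU, which encodes a ubiquitin-like fusion to a small-subunit protein, stood at 0.02 and RPL36AL, a copy of RPL36A, at 0.12 for suspended minus adherent. After reattachment they stood at -0.08 and -0.01 relative to suspension. Translation factors and other known TOP genes had a median of -0.07 for suspended minus adherent, with 14 of 19 below 0, and 0.13 for reattached minus suspended, with 16 of 19 above 0, while median scaling gave 0.00 and -0.02. Relative to all genes under that scaling they lay at -0.10 and 0.11. In suspension 0 of the 19 were past the limit, against 10.8% of all genes higher and 9.23% lower. After reattachment 2 were higher than in suspension, against 5.89% of all genes, while with median scaling 0 were, against 3.29%. Those 2 were EIF4B, an activator of the helicase that unwinds messages, at 0.35, and the initiation factor subunit EIF3F at 0.33. In suspension EIF3F (-0.30) and EIF3K (-0.27) were lowest and EIF3E (0.14) and HNRNPA1 (0.12) highest, and HNRNPA1, an RNA-binding protein, was at 0.39 for reattached minus adherent.

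Mitochondrial ribosomal proteins had a median of -0.08 for suspended minus adherent over 76 genes, 52 of them below 0, and of 0.06 for reattached minus suspended, and median scaling turned both, to 0.04 and -0.08. MRPL22 (-0.41) and MRPL12 (-0.33) were lowest in suspension, MRPS6 (0.52) and MRPS25 (0.27) highest. Ribosome biogenesis genes, 36 of the 40 listed, had a median of -0.02 for suspended minus adherent, 0.09 with median scaling. RRN3, an initiation factor of RNA polymerase I, stood at -0.31 and NOP16 at -0.30, while NOB1, the nuclease that trims the small subunit's RNA, had 0.19 and UBTF, an activator of ribosomal RNA genes, 0.17. MYC, which drives many of these genes, had 0.08. For reattached minus suspended, HEATR3 (0.37) and PPAN (0.30) were highest and SBDS (-0.33) and NOB1 (-0.31) lowest.

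Among 10 kinases and regulators that act on translation, the median was 0.08 for suspended minus adherent, and 0.19 with median scaling. PDCD4, an inhibitor of the initiation helicase, had 0.35 and was the 1 gene of the 10 past the limit, where 10.8% of all genes were higher. With median scaling 3 of the 10 were higher, against 19.9% of all genes, so neither count sets the list apart. Next, EEF2K, which inactivates elongation factor EEF2, had 0.27. MTOR stood at 0.21, and the S6 kinases RPS6KB1 and RPS6KB2, which modify the RPS6 protein, at 0.07 and -0.10. For reattached minus suspended, the cap-binding factor EIF4E stood at -0.43, EEF2K at -0.25 and PDCD4 at -0.22, while EIF4EBP2 had 0.19 and EIF4EBP1 0.14. For reattached minus adherent, EIF4E stood at -0.35 and MTOR at 0.34.

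**Figure D5:**
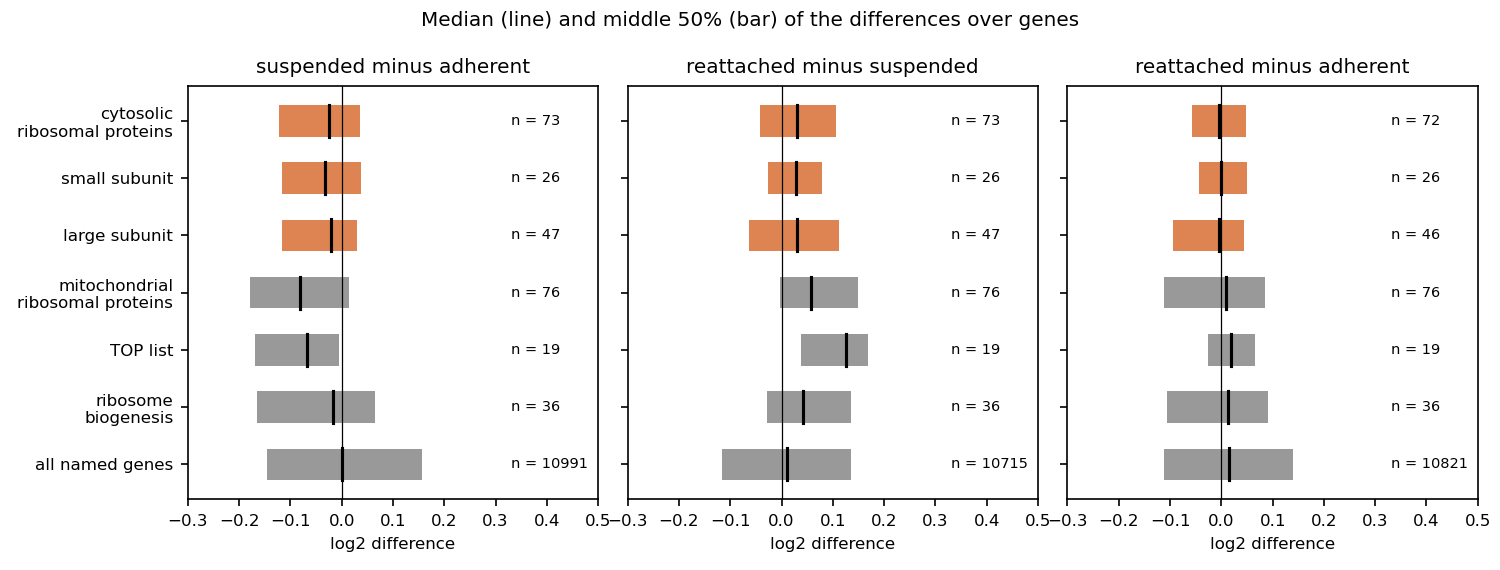
Median (line) and middle 50% (bar) of the log2 differences (horizontal axis) over the genes of each set for the 3 comparisons, with the number of genes. The bars of the ribosomal proteins and of the other lists are narrower than that of all named genes. The cytosolic ribosomal protein medians of -0.02, 0.03 and -0.01 lie close to 0, the first 2 with the opposite sign under median scaling.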

How the data were processed

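Total RNA of A375 cells in 3 states was labelled as biotinylated cRNA with an Ambion kit for Illumina arrays, per the labels' protocols. Per the file headers, the deposited scanner table holds an intensity and a detection p-value for each probe and array, linear and not normalized between arrays. A further table that the authors deposited holds an intensity per probe with almost equal distributions across arrays, and it served as an alternative. The scanner software and any background subtraction it made are not stated in these sources.

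Background correction and quantile normalization used neqc (offset 16) of limma 3.58.1 in R 4.3.3, and the rest Python 3.11.15 with pandas 2.3.3. Of 47323 probes, 30113 had 1 gene symbol, 8 had several and 17202 were unnamed here, and 30074 Entrez identifiers were found in the GRCh38.p14 table with 0 symbols changed. A gene took its brightest probe detected (p-value under 0.01) on any array and entered a comparison when either array of that comparison detected it, a value not detected being raised to the array's lowest detected level. Sequences are RefSeq's.

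Members and lists were chosen with earlier results of these data known. Genes named are the 5 highest and 5 lowest of each comparison, the paralogs with their parents, the stalk and 5S proteins, RPS6, the reference genes, probes that disagree, and the 2 leaders of each list in each direction, of which some are given. RPS19, RPS25, RPS12, RPL29 and a few list members lie outside this rule and were picked with their values in view. The steps were tested on simulated data. Alternatives were median scaling, cyclic loess, background left in, the authors' table, a detection p-value of 0.05, no detection filter and the mean over probes, and leaving out the paralogs was added later. Signal over background and the number of arrays limit precision.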

Additional observations from a re-analysis of the deposited data

How the results depend on the processing

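Each value rests on 1 array per state, so neither replicate spread nor culture variation is known, and no replicate could be left out. No paired analysis was possible because each state has 1 array. The 8 alternatives left the counts past the log2 limit of 0.322 between 0 and 4 genes. Median scaling moved most. It aligned the medians of all 47323 probes, of which 36.9%, 35.6% and 37.5% were detected on the suspended, reattached and adherent array. For suspended minus adherent the members' median became 0.064 with 3 genes higher and 0 lower, against 19.9% and 7.24% of all genes. For reattached minus suspended it became -0.10 with 1 higher and 4 lower, against 3.29% and 17.4%. For reattached minus adherent it became -0.055 with 2 lower, against 9.19%. That scaling also moved the median of all named genes to 0.10, -0.13 and -0.02, and the share of higher among all genes past the limit to 73.3%, 15.9% and 39.9%, beside 52.2%, 45.2% and 46.3% with quantile normalization, undetected values here left as measured. All shares of all genes in this paragraph leave undetected values as measured. The counts of members raise them to the array's lowest detected level, except where no filter was used. Cyclic loess gave 1 gene lower for reattached minus adherent, against 8.39% of all genes. With background left in, 0 were lower for reattached minus suspended, against 4.27% of all genes. The authors' deposited table gave 1 higher, RPS6, and 1 lower, RPS7, for suspended minus adherent, against 7.28% and 6.25% of all genes. With undetected values left as measured, 2 members were higher in that comparison. For reattached minus suspended it gave 0 lower, against 4.13%. A detection p-value of 0.05, or no filter, gave 1 higher for suspended minus adherent and 2 higher for reattached minus adherent. The gene added was RPL10L, which at 0.05 also passed on the reattached array, with a detection p-value of 0.0117. The mean over detected probes gave 0 lower for suspended minus adherent and 3 higher for reattached minus suspended. The gene added there was RPL8, whose probes gave 0.23 and 0.44. Shares over all genes were not counted for the mean over probes or the looser detection settings. Without the paralogs 1 was lower for suspended minus adherent, against 11.1% of all genes. Leaving out the paralogs counts fewer genes, and the looser detection settings change how RPL10L enters. The cause of the other shifts was not tested. No named gene past the limit changed sign, and the 513 recomputed values of single genes each moved by less than the SD over all genes of that comparison. That SD was 0.303, 0.226 and 0.222 in the 3 comparisons, against 0.140, 0.144 and 0.132 for the members. It is therefore a wide tolerance that most member differences could not exceed. Smaller values did change sign, as RPL26L1 did for reattached minus suspended with the mean over probes.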
